A study of Mus musculus with 24 samples.

Results

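The comparison described here sets adrenal transcripts at circadian time 6 (CT6) against those at circadian time 2 (CT2), an interval of 4 h in the early projected day. Circadian time 0 is the hour at which the lights would have come on. The glands were whole adrenals of male wild-type C57B/6J mice aged 3 months, so each sample mixes cortex, medulla and capsule. All mice were first held for 2 weeks under a cycle of 12 h light and 12 h dark and then stayed in constant darkness until they were killed, so no group saw light on the day of sampling. CT2 samples were taken at 38 and 62 h after lights off and CT6 samples at 42 and 66 h, with 2 arrays at each hour, which gives 8 of the 24 arrays of the series. The labels do not say how many animals gave a sample or whether the arrays of an hour came from separate animals, so the p-values speak only of the spread among these samples, and part of it may be technical.

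At each of these circadian times 1 pair of arrays carried nearly the same values. The arrays of 38 h replicate 2 and 62 h replicate 2 differed with an SD of 0.0415 on the log2 scale, and those of 42 h replicate 2 and 66 h replicate 1 with an SD of 0.0416. The other pairs of CT2 arrays differed with SDs of 0.23 to 0.26, and those of CT6 with SDs of 0.271 to 0.307. Each near-identical pair was therefore averaged and counted as 1 sample, which left 3 profiles a side. In the order used for every gene below, the CT2 profiles are 38 h replicate 1, 62 h replicate 1 and the averaged pair, and the CT6 profiles are 42 h replicate 1, 66 h replicate 2 and the averaged pair. Levels are log2(signal + 51), a scale on which differences of dim genes come out smaller than on the signal itself. Folds are folds of signal + 51, so they too are smaller than those of the signal. Errors of levels are SDs over 3 profiles, errors of differences are SEs from limma, and adjusted p means limma's p adjusted by Benjamini-Hochberg over 13880 genes.

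The circadian clock of mammalian cells is a loop of transcription factors. CLOCK and ARNTL (BMAL1) bind E-box sequences and drive the Per and Cry genes, whose proteins then block that same pair. They also drive Nr1d1 and Nr1d2, which encode the repressors REV-ERB alpha and beta, and these compete with ROR activators to set the level of Arntl. Downstream, DBP, TEF and HLF activate D-box sequences that NFIL3 represses. In the adrenal gland this loop is known to gate the response of the cortex to ACTH, the pituitary hormone that drives glucocorticoid output, which in nocturnal mice is lowest in the early day and highest towards evening.

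Markers of the labelled tissue were bright. The summed signal of 10 adrenal cortex markers was 95512 to 98834 at CT2 and 93939 to 97237 at CT6, and that of 9 medulla markers 44629 to 46879 and 45929 to 52759. Gapdh, read at its 5' and its 3' end as a check on intact RNA, gave a ratio of 1.03 to 1.12 at CT2 and 1.05 to 1.13 at CT6, and the median level of the 8 arrays lay between 8.23 and 8.30. Brown fat markers moved with the groups. The summed signal of 7 such markers was 11720 to 13581 at CT2 and 21479 to 28305 at CT6, with no overlap, although 0 of the 7 passed limma's threshold and 3 had an unadjusted p under 0.05. The fit's SE also takes in the spread at CT14 and CT22. At CT22 the mean level of these markers ran from 9.02 (58 h replicate 1) to 11.28 (82 h replicate 1). Adrenal glands lie in fat that includes brown fat cells, and in bulk tissue more cells of a type and more RNA per cell cannot be told apart. Its part in the results below was not tested. A fit with the brown fat marker mean as a covariate called 48 genes, 32 of them among the 70 called without it, and 38 of the 70 missed the threshold there. The covariate itself separated the groups, at 9.79 to 10.01 at CT2 and 10.57 to 10.9 at CT6, so this fit cannot cleanly part it from circadian time. Among genes that missed the threshold there, some differences grew (Cirbp, 1.14 to 1.23) and others shrank (Cldn11, 0.86 to 0.69).

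Across the interval 70 of 13880 genes passed an adjusted p of 0.05 (0.504%). Of these 18 rose (0.13%) and 52 fell (0.375%), and in all 70 the 3 profiles of CT6 lay on one side of the 3 of CT2. The risers had a median difference of 0.62 and the fallers of 0.46 in size, and 5 risers and 4 fallers changed at least 2-fold. Over all genes the median difference was 0.008, with 53.3% of genes higher at CT6. The unadjusted p was under 0.05 for 1387 genes (9.99%), of which 577 were higher at CT6 (4.16%) and 810 lower (5.84%). The profiles did not overlap for 1153 genes in the upward (8.31%) and 1279 in the downward direction (9.21%). These shares are the background for the list counts below.

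The number of genes called depended on every profile. It was 11 without 38 h replicate 1, 12 without 62 h replicate 1, 26 without the averaged CT2 pair, 13 without 42 h replicate 1, 105 without 66 h replicate 2 and 18 without the averaged CT6 pair. None of the 70 genes reversed in any of 22 alternative analyses. The 9 genes Arntl, Cry1, Nr1d2, Dbp, Tef, Leo1, Hsph1, Ahsa2 and Tardbp stayed past the threshold in each alternative that tested the same probe set. Tardbp was picked out after its values were seen, and its other probe sets missed the threshold.

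**Figure D1:**
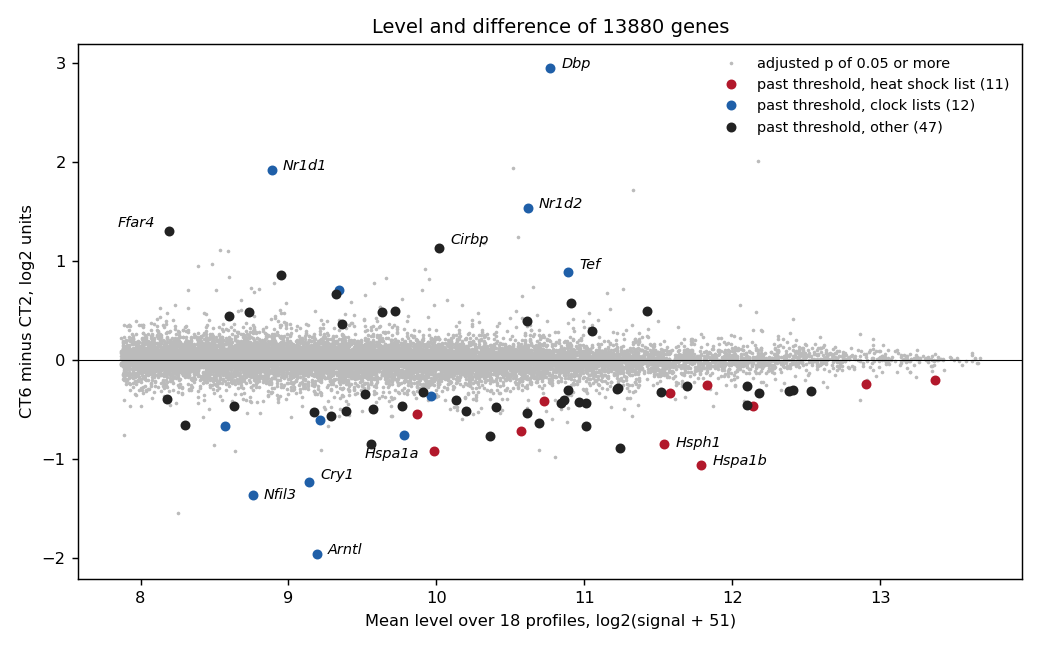
Difference between CT6 and CT2 (log2 units, vertical) against the mean level over 18 profiles (log2(signal + 51), horizontal) for 13880 genes. Coloured points passed the adjusted p of 0.05: 12 genes of the clock lists, among them Dbp at 2.95 and Arntl at -1.96, 11 of the heat shock list, all below 0, and 47 others.

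Of the core clock loop, 19 of 22 listed genes were tested, and 3 rose while 3 fell, against 0.13% and 0.375% of all genes. The gene lists were written with earlier results of these data known, so such counts are a description. The risers were the REV-ERB genes Nr1d1 and Nr1d2 and the repressor gene Cry2. The fallers were Arntl, Cry1 and Clock. Fbxl21, a ubiquitin ligase of CRY proteins, lay under the filter on low values with signals of 165 to 190, and 2 members were not matched to a probe set. The median difference of the 19 was 0.06, and 15 of them were higher at CT6 on the deposited scale, 13 after median centring and 14 after quantile normalization.

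Nr1d1, the gene of REV-ERB alpha, measured 8.54, 8.81 and 9.07 at CT2 and 10.83, 10.48 and 10.86 at CT6. All CT6 profiles lay far above those of CT2, and the rise was 1.92 ± 0.25 (adjusted p = 0.00822), or 3.78-fold. Its paralogue Nr1d2 measured 9.89, 9.96 and 9.63 at CT2 and 11.32, 11.38 and 11.41 at CT6. The CT6 profiles were tightly grouped, with an SD of 0.05, and the rise was 1.54 ± 0.19 (adjusted p = 0.00461), or 2.92-fold. Cry2, which encodes the second cryptochrome, measured 8.85, 8.68 and 8.57 at CT2 and 9.41, 9.26 and 9.55 at CT6. It rose by 0.71 ± 0.10 (adjusted p = 0.0132), with no overlap. Without 38 h replicate 1, 62 h replicate 1 or 42 h replicate 1 Nr1d1 missed the threshold, at adjusted p-values of 0.0639, 0.0522 and 0.0534 and rises of 1.78, 1.92 and 1.87. Cry2 missed it without 62 h replicate 1, the averaged CT2 pair, 42 h replicate 1 or the averaged CT6 pair, at 0.0728, 0.0541, 0.0633 and 0.0597.

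Arntl, the gene of BMAL1, measured 10.76, 10.66 and 10.86 at CT2 and 9.05, 8.71 and 8.62 at CT6. It had the largest fall of all called genes, by 1.96 ± 0.21 on the log2 scale (adjusted p = 0.00274), or 3.9-fold, with all CT6 profiles far below CT2. A dimmer second probe set of Arntl differed by 0.03 ± 0.08 (unadjusted p = 0.678), so the call rests on the brighter one. Cry1, the gene of the first cryptochrome, measured 8.72, 8.63 and 8.90 at CT2 and 7.57, 7.52 and 7.47 at CT6. It fell by 1.23 ± 0.11 (adjusted p = 0.00239), opposite in direction to its paralogue Cry2. Clock, which encodes the partner of BMAL1, measured 10.27, 10.20 and 10.10 at CT2 and 9.80, 9.91 and 9.78 at CT6. Its fall of 0.36 ± 0.07 was just past the threshold (adjusted p = 0.0487) and missed it in 15 of 22 alternatives, where adjusted p reached 0.267. These include each fit without 1 profile of CT2 or CT6 other than 66 h replicate 2 (0.0724 to 0.267), the one without 82 h replicate 1 (0.056) and the one with the brown fat covariate (-0.31, adjusted p = 0.121).

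The Per genes, whose products partner the CRY proteins, did not pass the threshold. Per2 measured 8.85, 8.67 and 8.51 at CT2 and 9.38, 10.15 and 9.24 at CT6. The groups did not overlap, but 66 h replicate 2 stood well above the other CT6 profiles, and the difference was 0.92 ± 0.22 (adjusted p = 0.136). Per1 measured 9.31, 9.38 and 8.62 at CT2 and 9.50, 10.12 and 9.07 at CT6, with overlapping groups and a difference of 0.46 ± 0.29 (adjusted p = 0.642). Per3 differed by 0.01 ± 0.09 (adjusted p = 0.984). Npas2, the paralogue of Clock, differed by -0.17 ± 0.10 (adjusted p = 0.612). Ciart, a repressor of the CLOCK complex, differed by 0.26 ± 0.11 (adjusted p = 0.459). The ROR genes Rora and Rorb, the bHLH repressor genes Bhlhe40 and Bhlhe41, the CRY and PER regulators Csnk1d, Csnk1e and Btrc, and Timeless differed by 0.01 to 0.17 with adjusted p-values of 0.651 to 0.99.

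**Figure D2:**
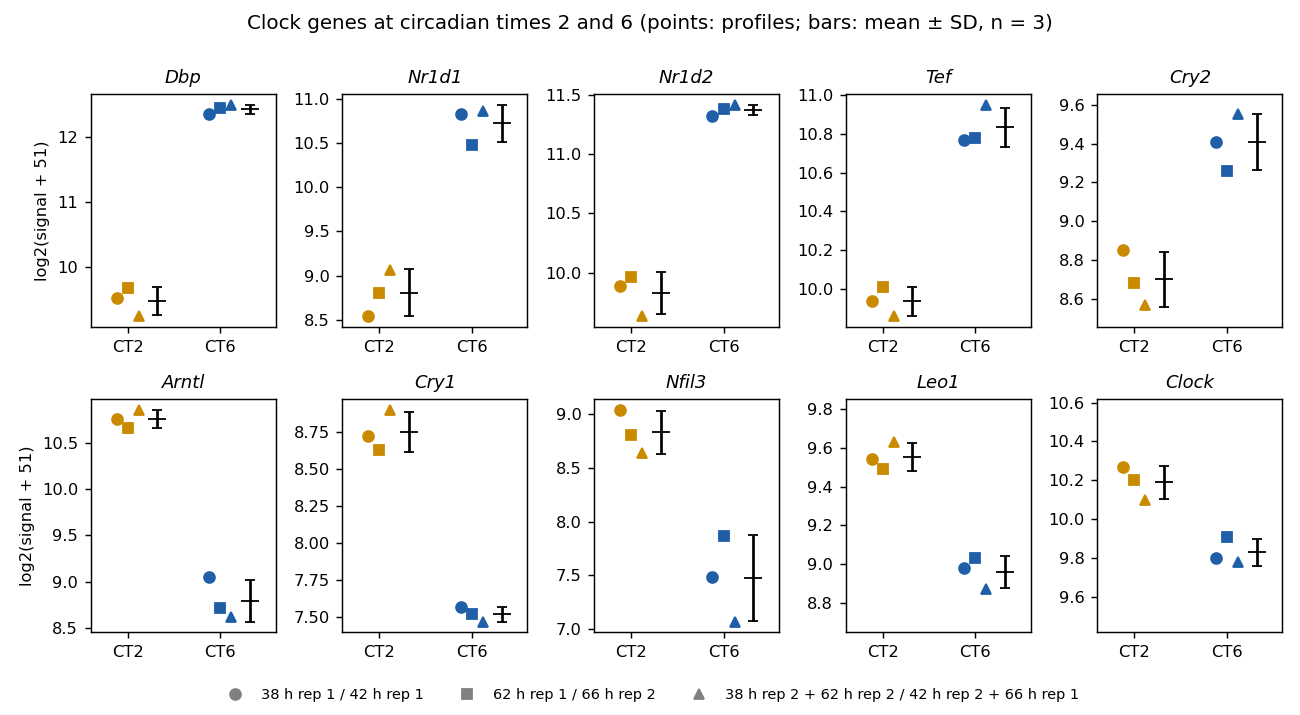
Levels (log2(signal + 51)) of 10 clock genes in the 3 CT2 and 3 CT6 profiles, with means and SDs beside them; each panel has its own scale. The upper row holds 5 genes that rose, from 9.48 ± 0.22 to 12.43 ± 0.07 in Dbp, and the lower row 5 that fell, from 10.76 ± 0.10 to 8.80 ± 0.23 in Arntl.

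Among the D-box factors and output genes, 18 of 19 listed were tested. Of these 2 rose and 4 fell, against 0.13% and 0.375% of all genes. This list too was written with earlier results of these data known, so its counts are a description. Dbp, which encodes the D-box activator that shares its name, measured 9.52, 9.67 and 9.24 at CT2 and 12.35, 12.44 and 12.49 at CT6. This was the largest difference of any called gene, a rise of 2.95 ± 0.32 (adjusted p = 0.00274), or 7.72-fold, and a second probe set of Dbp gave 3.07 ± 0.32. Tef, the gene of a second D-box activator, measured 9.94, 10.01 and 9.86 at CT2 and 10.77, 10.78 and 10.95 at CT6. It rose by 0.89 ± 0.10 (adjusted p = 0.0043), without overlap, although 2 dimmer probe sets of Tef gave 0.24 and -0.05. Hlf, the third member of that family, had means of 9.20 at both times and a difference of -0.01 ± 0.11 (adjusted p = 0.993).

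Nfil3, which encodes the repressor at D-boxes, moved opposite to Dbp. It measured 9.04, 8.81 and 8.64 at CT2 and 7.48, 7.87 and 7.07 at CT6, and fell by 1.36 ± 0.22 (adjusted p = 0.0219). Its CT6 profiles were spread widely, with an SD of 0.40, but did not reach CT2. Leo1, a subunit of the PAF1 transcription elongation complex, measured 9.54, 9.49 and 9.63 at CT2 and 8.98, 9.03 and 8.87 at CT6. It fell by 0.60 ± 0.08 (adjusted p = 0.00668). Ypel2, a member of the yippee-like family, fell by 0.75 ± 0.13 (adjusted p = 0.0251). Lonrf3, a RING finger protein gene, fell by 0.66 ± 0.12 (adjusted p = 0.0425), although a dimmer probe set of Lonrf3 gave -0.02 ± 0.08. With the brown fat covariate Nfil3, Ypel2 and Lonrf3 missed the threshold (adjusted p = 0.0585, 0.071 and 0.109) with falls of 1.30, 0.72 and 0.55. Of these 4 fallers Leo1 and Ypel2 passed without the averaged CT6 pair, Leo1, Nfil3 and Lonrf3 without 66 h replicate 2, and only Leo1 without any one of the other 4 profiles of CT2 and CT6.

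Several other output genes were higher at CT6 in all profiles without passing the threshold. Klf10, a TGF beta inducible repressor gene, differed by 0.78 ± 0.17 (adjusted p = 0.0947) and passed without 66 h replicate 2 (0.97, adjusted p = 0.0234). Usp2, a deubiquitinase gene, measured 9.10, 9.26 and 9.11 at CT2 and 9.66, 10.45 and 9.49 at CT6, with 66 h replicate 2 again the highest (difference 0.71 ± 0.21, adjusted p = 0.236). Tspan4, a tetraspanin gene, differed by 0.52 ± 0.11 (adjusted p = 0.0769) and passed after quantile normalization (adjusted p = 0.0386). The cell cycle kinase gene Wee1 had a mean of 8.80 at both times. The glucocorticoid-responsive genes Tsc22d3 and Klf9 differed by -0.24 ± 0.09 and 0.23 ± 0.09 (adjusted p = 0.396 and 0.39).

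The E-box CACGTG is the sequence through which the CLOCK complex is known to act, so the promoter windows of Cry1 and Tef, the called transcriptional regulators of the clock lists that hold it, are shown; Lonrf3, a called output gene, also held 1 match and is not shown. They come from RefSeq (build GRCm38.p6), read 5' to 3' on the gene's strand, with the E-box in capitals; Tef has 2 start sites in the table. The first lies at chr10:85185069-85185154 (minus strand), the others at chr15:81802506-81802591 and chr15:81811236-81811321 (plus strand), and the E-box begins 60, 127 and 138 bases before the start site.
Cry1: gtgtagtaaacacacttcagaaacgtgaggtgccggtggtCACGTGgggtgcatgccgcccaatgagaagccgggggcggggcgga
Tef (first start site): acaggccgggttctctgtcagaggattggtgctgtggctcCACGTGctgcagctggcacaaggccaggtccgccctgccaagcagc
Tef (second start site): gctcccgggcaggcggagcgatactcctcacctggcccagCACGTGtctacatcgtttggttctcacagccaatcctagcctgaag
Cry1 fell and Tef rose while both held this motif. In the 250 bases before the start site, on either strand, CACGTG was found in 2 of 17 risers (11.8%), 4 of 44 fallers (9.09%) and 9.41% of the 11116 tested genes with a promoter in the table, and in 6.02% of all 32851 promoters. The ROR and REV-ERB core AGGTCA was found in 5 of 17 risers (29.4%), 9 of 44 fallers (20.5%) and 13.9% of tested genes. The D-box letters TTATGTAA or TTACGTAA were found in no called gene with a promoter and in 0.765% of tested genes, and the cAMP element TGACGTCA in 1 riser, no faller and 2.73% of tested genes. No motif searched contains another, and a match is a description of the letters only.

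Of the 26 pathway lists, that of heat shock proteins and their helpers held the most called genes. They are chaperones that fold proteins, driven in stressed cells and in daily rhythms of body temperature by the factor HSF1, which binds repeats of the letters GAANNTTC. Of 29 listed genes 25 were tested, and 11 fell and 0 rose, against 0.375% of all genes that fell. In all, 23 of the 25 were lower at CT6 under each of the 3 scalings, 16 without overlap (9.21% of all genes were), 18 with an unadjusted p under 0.05 (5.84% of all genes), and the median difference was -0.25. The list was written with earlier results of these data known. The count of fallers was 2 without 38 h replicate 1, 3 without 62 h replicate 1, 5 without the averaged CT2 pair, 3 without 42 h replicate 1, 4 without the averaged CT6 pair and 11 without 66 h replicate 2. It was 8 with the brown fat covariate and 11 without 82 h replicate 1.

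The large inducible chaperones fell most. Hspa1b, an inducible HSP70 gene, measured 11.98, 11.89 and 12.05 at CT2 and 10.79, 11.32 and 10.64 at CT6. The CT6 profiles all lay lower, with 66 h replicate 2 the nearest to CT2, and the fall was 1.06 ± 0.19 (adjusted p = 0.0362), or 2.08-fold. Hspa1a, its near-identical neighbour, measured 10.04, 9.93 and 10.26 at CT2 and 8.99, 9.53 and 8.97 at CT6, and fell by 0.91 ± 0.16 (adjusted p = 0.0362). Probes for one can bind the transcript of the other, so these are not independent results. Both missed the threshold with the covariate (adjusted p = 0.054 and 0.0531) and without any one profile other than 66 h replicate 2 (0.107 to 0.179). Hsph1, the gene of HSP105, measured 11.88, 11.78 and 11.72 at CT2 and 10.91, 11.08 and 10.88 at CT6. It fell by 0.84 ± 0.09 (adjusted p = 0.00274), and a second probe set gave -0.91 ± 0.09. Hspa4l, a relative of Hsph1, fell by 0.54 ± 0.06 (adjusted p = 0.00451), from 10.01 ± 0.10 to 9.46 ± 0.05.

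Several co-chaperones were among the fallers. Chordc1, a partner of HSP90, measured 10.70, 10.55 and 10.75 at CT2 and 9.80, 10.22 and 9.86 at CT6, and fell by 0.71 ± 0.11 (adjusted p = 0.0192). Here too 66 h replicate 2 was the highest CT6 profile. Fkbp4, the immunophilin that helps HSP90 mature steroid receptors, fell by 0.41 ± 0.05 (adjusted p = 0.00822). Ahsa1, the activator of the HSP90 ATPase, fell by 0.33 ± 0.05 (adjusted p = 0.0132). A dimmer probe set of Fkbp4 gave -0.11 ± 0.07, and a dimmer probe set of Ahsa1 gave 0.14 ± 0.10. Chordc1 missed the threshold without any one profile other than 66 h replicate 2 (0.0595 to 0.117), Fkbp4 without 38 h replicate 1 or 62 h replicate 1 (0.075 and 0.0596), and Ahsa1 without either of these or 42 h replicate 1 (0.102, 0.0627 and 0.0694). Ahsa2, a relative of Ahsa1 that is not on the list, measured 10.04, 9.91 and 9.87 at CT2 and 9.04, 9.22 and 9.03 at CT6, and fell by 0.84 ± 0.09 (adjusted p = 0.00274). The remaining 4 fallers of the list were picked out after their values were seen. Dnaja1, an HSP40 gene, fell by 0.46 ± 0.07 (adjusted p = 0.0132), Hspe1, the gene of mitochondrial HSP10, by 0.24 ± 0.04 (0.0201), Hspa8, the constitutive HSC70 gene, by 0.20 ± 0.03 (0.0219), and Hspa4 by 0.25 ± 0.05 (0.0425). Hspa4 missed the threshold in 15 of 22 alternatives, among them the brown fat covariate (-0.22, adjusted p = 0.0985), median centring, quantile normalization and each profile left out (0.0694 to 0.214). Hspe1 and Hspa8 missed it without any one profile other than 66 h replicate 2 (0.0607 to 0.143), and Dnaja1 without 38 h replicate 1, the averaged CT2 pair, 42 h replicate 1 or the averaged CT6 pair (0.0541 to 0.102). Of the other probe sets of Hspa4 one differed by 0.16 ± 0.05 in the opposite direction (unadjusted p = 0.0114). Among the 14 members not called were Stip1 (-0.37, adjusted p = 0.0733), Hsp90aa1 (-0.20, 0.138), Dnajb1 (-0.48, 0.357) and Hspd1 (-0.12, 0.234), and 2 were higher, Bag3 (0.09) and Dnajb6 (0.03).

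**Figure D3:**
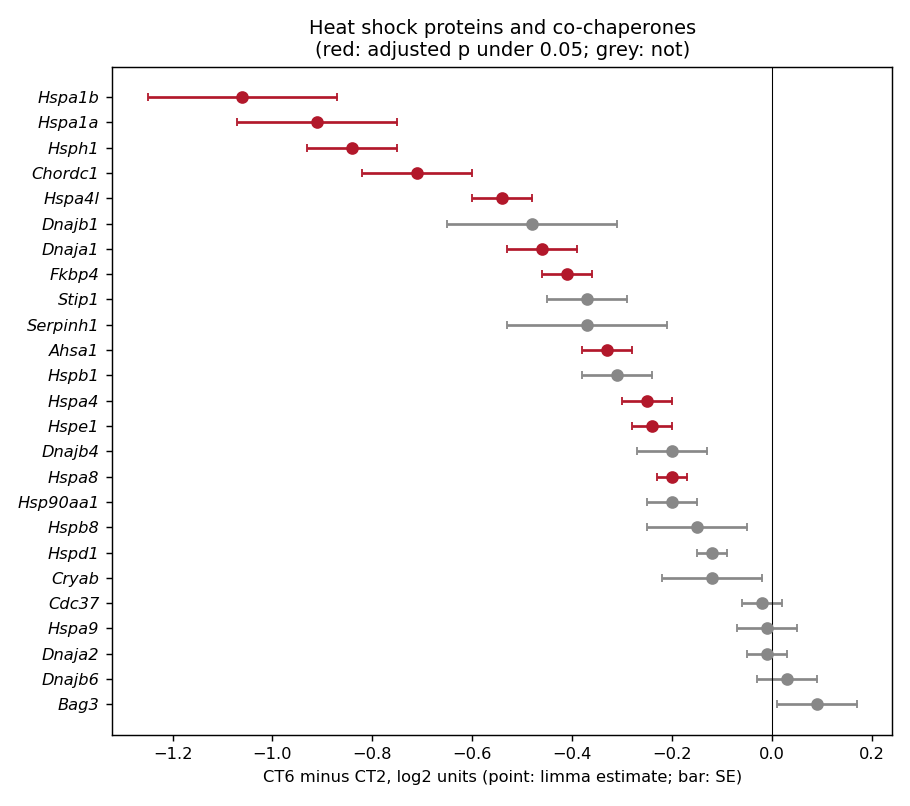
Difference between CT6 and CT2 (log2 units, horizontal) of the 25 tested heat shock proteins and co-chaperones, as limma estimates with SEs. The 11 genes past the adjusted p of 0.05, in red, lie between -1.06 (Hspa1b) and -0.20 (Hspa8), and 2 genes lie above 0.

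Promoters of these genes were searched on both strands for GAANNTTC, 2 facing repeats of the HSF1 element. The search covered the 250 bases before the start site. The motif was found in 5 of the 10 fallers of the list with a promoter in the table (50%), in 6.29% of the 11116 tested genes and in 6.69% of all 32851 promoters. Hspa1a and Hspa1b, whose windows are identical, both count among the 5. The share among list members that did not fall was not computed, so the 50% cannot be tied to the fall. Of the 44 fallers with a promoter the same 5 held it (11.4%), and 0 of 17 risers did. Windows around the match are shown for the 4 distinct ones, from RefSeq (GRCm38.p6), 5' to 3' on the gene's strand, with the match in capitals. They lie at chr17:34959295-34959382 (minus strand), chr4:40722304-40722391 (plus), chr6:128438760-128438847 (minus) and chr1:55088024-55088111 (plus), and the match begins 104, 124, 151 and 84 bases before the start site.
Hspa1b: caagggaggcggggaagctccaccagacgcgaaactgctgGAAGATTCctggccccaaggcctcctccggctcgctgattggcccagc
Dnaja1: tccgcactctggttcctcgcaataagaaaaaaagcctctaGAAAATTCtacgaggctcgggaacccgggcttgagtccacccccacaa
Fkbp4: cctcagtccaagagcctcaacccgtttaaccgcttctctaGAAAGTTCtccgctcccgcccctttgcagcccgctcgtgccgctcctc
Hspe1: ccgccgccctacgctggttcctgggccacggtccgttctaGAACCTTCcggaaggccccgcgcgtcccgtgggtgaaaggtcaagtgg
The window of Hspa1a (chr17:34972213-34972300, minus strand) matched that of Hspa1b in 88 of 88 bases. The letters GAANNTTC were not in the Hsph1 promoter searched, and Hspa8 was not matched.

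Against the fall of the heat shock genes, the cold-inducible gene Cirbp rose. Cirbp encodes an RNA-binding protein whose transcript is known to increase when body temperature drops. It measured 9.91, 10.13 and 10.18 at CT2 and 11.30, 11.31 and 11.02 at CT6, without overlap, and rose by 1.14 ± 0.21 (adjusted p = 0.0402), or 2.2-fold. Hnrnpdl, which encodes an RNA-binding protein that regulates its own splicing, measured 10.69, 10.77 and 10.75 at CT2 and 11.40, 11.17 and 11.37 at CT6. It rose by 0.58 ± 0.10 (adjusted p = 0.0331). Its other probe sets gave -0.04 to 0.72. Those at 0.58 and 0.60 passed in limma's fit over all tested probe sets (adjusted p = 0.0373 and 0.0439). Cirbp and Hnrnpdl were the only called genes among 13 tested cold-inducible and SR splicing genes, against 0.13% of all genes that rose. Of the 13, 7 were higher on the deposited scale and 6 after median centring. The median difference of the 13 was 0.01, and 2 were higher and 2 lower with limma's unadjusted p under 0.05. Without any one profile of CT2 or CT6 Cirbp missed the threshold (adjusted p = 0.0787 to 0.231, rises of 1.05 to 1.23), and with the brown fat covariate it did so at 0.0577 with a rise of 1.23. Hnrnpdl missed it without any one profile other than 66 h replicate 2 (0.108 to 0.179).

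Sfpq, a splicing factor gene that also binds PER complexes, measured 10.87, 10.83 and 10.96 at CT2 and 10.04, 10.59 and 10.15 at CT6, and fell by 0.63 ± 0.12 (adjusted p = 0.0425). The CT6 profile of 66 h replicate 2 was the closest to CT2. Sfpq missed the threshold without any one of the other 5 profiles (0.156 to 0.198) and with the covariate (0.0897). Probe sets of Sfpq other than the brightest gave -0.02 to -0.37. Those at -0.37 and -0.32 passed in limma's fit over all tested probe sets (adjusted p = 0.0219 and 0.0489). Picked out after their values were seen, Tardbp, the gene of TDP-43, measured 10.96, 10.83 and 10.78 at CT2 and 10.27, 10.37 and 10.34 at CT6 and fell by 0.53 ± 0.07 (adjusted p = 0.00497). Other probe sets of Tardbp differed by -0.13 to -0.30. None of them passed in limma's fit over all tested probe sets (adjusted p = 0.189 to 0.743). Hnrnpc fell by 0.33 ± 0.05 (adjusted p = 0.0144) and Hnrnpm by 0.28 ± 0.05 (adjusted p = 0.0331), and both encode proteins that bind nascent transcripts. Hnrnpm missed the threshold with the covariate (-0.26, adjusted p = 0.0821) and without any one profile other than 66 h replicate 2 (0.0541 to 0.193), and Hnrnpc without 38 h replicate 1, 62 h replicate 1 or the averaged CT6 pair (0.102, 0.0819 and 0.0754).

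The largest falls outside these groups belonged to genes of varied function. Tubb6, a beta tubulin gene, measured 11.63, 11.59 and 11.38 at CT2 and 10.65, 10.88 and 10.44 at CT6, and fell by 0.88 ± 0.14 (adjusted p = 0.0235). Chka, which encodes choline kinase alpha, the first enzyme of phosphatidylcholine synthesis from choline, measured 10.74, 10.77 and 10.83 at CT2 and 9.94, 10.25 and 9.87 at CT6. It fell by 0.76 ± 0.11 (adjusted p = 0.0141). Id1, an inhibitor of bHLH factors induced by BMP signals, measured 11.77, 11.84 and 11.42 at CT2 and 11.01, 11.01 and 11.04 at CT6, and fell by 0.66 ± 0.11 (adjusted p = 0.0251). Klrc1, a receptor gene of natural killer cells, fell by 0.65 ± 0.12 from 8.63 ± 0.13 to 7.98 ± 0.21 (adjusted p = 0.0402). A dimmer probe set of Tubb6 gave 0.04 ± 0.07, and 2 of Chka gave -0.04 and -0.14. Tubb6, Chka and Klrc1 missed the threshold without each of at least 5 of the 6 profiles in turn, and Id1 without 4 of them (highest adjusted p = 0.148, 0.082, 0.162 and 0.168). Id1 and Klrc1 also missed it with the covariate (adjusted p = 0.0734 and 0.076).

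The other risers were fewer. Ffar4, the gene of the long-chain fatty acid receptor GPR120, measured 7.43, 7.40 and 7.50 at CT2 and 8.57, 8.70 and 8.98 at CT6. It rose by 1.31 ± 0.25 (adjusted p = 0.0433), and with the covariate by 0.89 (adjusted p = 0.046). Brown and white fat cells express this gene, and without any one profile its adjusted p was 0.073 to 0.218. Cldn11, a tight junction claudin gene, measured 8.27, 8.45 and 8.36 at CT2 and 9.17, 9.52 and 8.97 at CT6, and rose by 0.86 ± 0.16 (adjusted p = 0.0415; 0.69 and 0.0985 with the covariate, and 0.0618 to 0.234 without any one profile). Noct, which encodes the rhythmic phosphatase nocturnin, measured 8.81, 8.73 and 8.77 at CT2 and 9.29, 9.43 and 9.60 at CT6, and rose by 0.67 ± 0.11 (adjusted p = 0.0235). Hes6, a bHLH factor gene, rose by 0.50 ± 0.08 (adjusted p = 0.0192), and 6430548M08Rik, a gene without a standard name, by 0.50 ± 0.08 (0.0219). Herc3, Gpcpd1 and Dapp1, which encode a ubiquitin ligase, a glycerophosphocholine phosphodiesterase and an adaptor of B cell receptor signals, rose by 0.49 ± 0.09, 0.49 ± 0.09 and 0.45 ± 0.07 (adjusted p = 0.0394, 0.0402 and 0.0249). These last 3 missed the threshold with the covariate (0.0957, 0.1 and 0.072) and without any one profile (0.054 to 0.189). Without any one profile other than 66 h replicate 2, Noct, Hes6 and 6430548M08Rik did so too (0.0534 to 0.129).

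Of the genes that serve steroid output 1 passed. Mrap carries the ACTH receptor to the cell surface. It was the only called gene among 31 tested of adrenal transcription factors and ACTH signalling, against 0.375% of all genes that fell. It measured 12.47, 12.36 and 12.38 at CT2 and 11.84, 12.17 and 11.85 at CT6, and fell by 0.45 ± 0.08 (adjusted p = 0.0425). The CT6 profile of 66 h replicate 2 lay closest to CT2, a second probe set of Mrap gave 0.20 ± 0.14, and the call was lost in 12 of 22 alternatives, among them quantile normalization (adjusted p = 0.0573), the covariate (0.1) and each fit without 1 profile other than 66 h replicate 2 (0.124 to 0.251). Of 11 steroid synthesis genes 0 passed limma's threshold and 1 had an unadjusted p under 0.05. Star, which moves cholesterol into mitochondria, measured 13.63, 13.65 and 13.48 at CT2 and 13.67, 13.65 and 13.65 at CT6 (difference 0.07 ± 0.04, adjusted p = 0.607). Stard4, a cholesterol carrier gene, was lower without overlap (-0.27 ± 0.08, adjusted p = 0.244).

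Cholesterol synthesis genes were mostly lower at CT6, with 15 of 18 tested below CT2 (16 after median centring, 14 after quantile normalization). Their median was -0.15, but limma called 0 of them. Of the 18, 5 were lower with an unadjusted p under 0.05 (5.84% of all genes were). Lss, the lanosterol synthase gene, measured 9.33, 9.21 and 9.35 at CT2 and 8.57, 8.88 and 8.90 at CT6 (difference -0.51 ± 0.11, adjusted p = 0.0669) and passed after median centring (adjusted p = 0.0356). Fdps, the farnesyl diphosphate synthase gene, differed by -0.45 ± 0.11 (adjusted p = 0.114), without overlap. Of 17 genes of SREBP control and its targets and 12 of cholesterol uptake, storage and export, limma called 0, with unadjusted p-values under 0.05 in 2 and 1. Acsl3, an acyl-CoA synthetase gene, differed by -0.28 ± 0.06 (adjusted p = 0.106), and Scarb1, the HDL receptor gene, by -0.17 ± 0.07 (0.446). Among zona glomerulosa genes 0 of 11 passed and 3 had an unadjusted p under 0.05, and Kcnk3, the TASK-1 potassium channel gene, was higher without overlap (0.27 ± 0.05, adjusted p = 0.0615), passing without 66 h replicate 2 (0.34, adjusted p = 0.00754).

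In the medulla, 12 of 14 genes of catecholamine synthesis and storage and 13 of 17 of chromaffin granules were higher at CT6 (11 and 12 of the 17 after median centring and quantile normalization), with medians of 0.13 each. Limma called 0 in either list, and 0 and 4 had an unadjusted p under 0.05. Dbh, the enzyme that makes noradrenaline, differed by 0.21 ± 0.10 (adjusted p = 0.542), and Chga, the granule protein chromogranin A, by 0.10 ± 0.04 (adjusted p = 0.429). The summed signal of medulla markers overlapped between the groups.

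Genes that switch cells between fat and sugar as fuel were higher at CT6 in 20 of 21 tested, under each of the 3 scalings, with a median of 0.28 against 0.008 for all genes. Limma called 0 of them, and 8 higher and 1 lower had an unadjusted p under 0.05 (4.16% and 5.84% of all genes). Pdk4, the kinase that shuts off pyruvate oxidation, measured 9.91, 9.63 and 9.92 at CT2 and 11.52, 11.53 and 12.23 at CT6, with a difference of 1.94 ± 0.44 (adjusted p = 0.0976). Pck1, which makes glycerol for fat storage in fat cells, measured 10.70, 10.45 and 10.30 at CT2 and 12.06, 12.01 and 12.55 at CT6, with a difference of 1.72 ± 0.40 (adjusted p = 0.106). In both genes the groups lay far apart, and the SE was set by the spread of the CT14 and CT22 profiles too. In a fit over the 6 profiles of CT2 and CT6 alone Pdk4 and Pck1 passed (adjusted p = 0.00439 and 0.00346), and Pck1 passed without 82 h replicate 1 (0.0265).

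The brown fat markers were higher in the same profiles as these genes. Ucp1, the uncoupling protein that defines brown fat cells, measured 10.63, 11.05 and 11.24 at CT2 and 12.81, 13.00 and 13.13 at CT6, with a difference of 2.01 ± 0.72 (adjusted p = 0.35). Its SD was 0.31 at CT2, 0.16 at CT6 and 2.02 at CT22, and the SE takes in all of these. Elovl3, a fatty acid elongase gene of brown fat, measured 7.33, 7.77 and 8.01 at CT2 and 8.54, 9.36 and 8.53 at CT6 (1.11 ± 0.45, adjusted p = 0.429). Otop1 and Cidea differed by 1.10 and 0.56, and Dio2 by -0.02. With the marker mean as a covariate the difference of Pck1 was 0.98 (adjusted p = 0.0465) and that of Pdk4 1.17 (0.0821). General fat markers did not separate the groups, with summed signals of 35145 to 41130 at CT2 and 36491 to 51568 at CT6. Adipoq, the adiponectin gene, measured 12.77, 12.49 and 12.68 against 12.45, 12.56 and 12.99, and Lep, the leptin gene, 8.79, 8.35 and 8.31 against 6.50, 6.23 and 8.09. Lep was thus lower at CT6 in all profiles but close to CT2 in the averaged pair (-1.54 ± 0.41, adjusted p = 0.188; without that pair -2.12, adjusted p = 0.02).

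**Figure D4:**
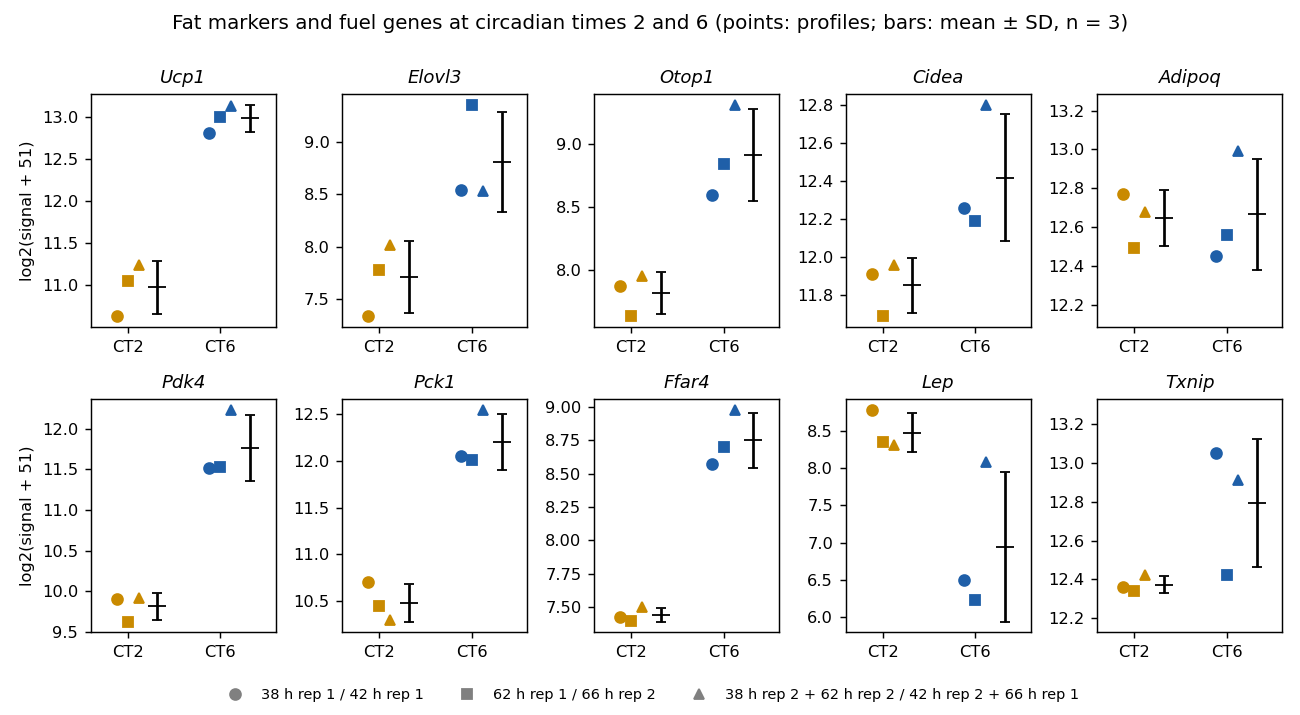
Levels (log2(signal + 51)) of fat markers and fuel genes in the 3 CT2 and 3 CT6 profiles, with means and SDs; each panel has its own scale. Ucp1 (10.97 ± 0.31 to 12.98 ± 0.16), Pdk4, Pck1 and Ffar4 are separated between the groups, while Adipoq overlaps (12.64 to 12.67).

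The unfolded protein response list of 27 tested genes held 1 riser, against 0.13% of all genes that rose. Herpud1, an endoplasmic reticulum protein that helps remove misfolded proteins, measured 10.60, 10.64 and 10.67 at CT2 and 10.94, 10.93 and 10.95 at CT6, and rose by 0.30 ± 0.05 (adjusted p = 0.0394). Median centring, the covariate and each fit without 1 profile took it past 0.05 (adjusted p = 0.0562, 0.0931 and 0.0549 to 0.231). Of the same list 20 genes were lower, 10 with an unadjusted p under 0.05 (5.84% of all genes were). All 8 subunits of the CCT chaperonin, which folds actin and tubulin, were lower under each scaling, with 5 not overlapping (9.21% of all genes were lower without overlap), a median of -0.09 and 0 called by limma (2 with an unadjusted p under 0.05). The lowest p among them was that of Cct3 (-0.13 ± 0.04, adjusted p = 0.266). Of 34 proteasome genes 25 were lower (28 after median centring) with a median of -0.04. Limma called 0, and 6 were lower with an unadjusted p under 0.05, against 5.84% of all genes.

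Glucocorticoid-induced and immediate early genes gave no call either. Of 18 tested genes of the glucocorticoid receptor and its targets, limma called 0, while 3 higher and 5 lower had an unadjusted p under 0.05, and Nfkbia, an NF-kappa B inhibitor gene, differed by -0.30 ± 0.08 (adjusted p = 0.202). Of 25 immediate early genes it called 0, with 2 each way under an unadjusted p of 0.05, and Ier5 and Myc differed by -0.33 ± 0.09 and 0.24 ± 0.08 (adjusted p = 0.218 and 0.32). Among DNA replication (23 tested), mitosis (18), iron and heme (18), redox (21), translation initiation (32), ribosome assembly (41), tRNA synthetase (19), and Wnt and hedgehog genes (18) limma called 0 each, and 0, 0, 1, 0, 1, 3, 1 and 2 of them had an unadjusted p under 0.05. In all, 6 of 26 pathway lists held a called gene, and 27 of the 70 called genes were in such a list.

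Markers of other tissues and cell types gave no call. Of the lists for skeletal muscle, liver, kidney, pancreas, red blood cells, T and B cells, and macrophages and granulocytes, limma called 0 and no gene had an unadjusted p under 0.05, with the muscle genes Mylpf and Tnnt3 at 0 in all 6 profiles. Fibroblast and capsule markers gave 0 at either threshold too. Summed muscle signals were 1488 to 1751 at CT2 and 1752 to 2078 at CT6, and Schwann cell and nerve signals 2863 to 2893 and 3062 to 3173, neither overlapping. Kidney signals did not overlap either, at 2395 to 2516 at CT2 and 2521 to 2567 at CT6. Of the 11 muscle members 7 lay under the filter on low values, and the muscle ranges only just missed each other. Sums of 14 lists were compared, and 8.31% of all single genes lay higher at CT6 without overlap. Endothelial markers were lower in 8 of 10 (10 of 10 after median centring). Limma called 0, and 3 were lower with an unadjusted p under 0.05, against 5.84% of all genes. Emcn differed by -0.31 ± 0.08 (adjusted p = 0.196).

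The same fit places these genes at the preceding and following times. The comparisons share profiles with CT6 minus CT2, so the values are given side by side. Between CT22 and CT2 33 genes passed (0.238%), and between CT6 and CT14 1272 did (9.16%), 710 of them higher at CT14 (5.12%) and 562 lower (4.05%). Cry1 was already falling into CT2, from 9.86 at CT22 to 8.75 (-1.10, adjusted p = 0.00791), reached 7.52 at CT6 and stood at 9.81 at CT14 (2.29 above CT6, adjusted p = 2.29e-06). Arntl stood at 11.01 at CT22 and 10.76 at CT2, and at CT14 its mean of 8.81 was that of CT6 within the spread (0.02, adjusted p = 0.975). Nr1d1 was at 7.79, 8.81, 10.72 and 8.09 at CT22, CT2, CT6 and CT14, and fell by 2.63 after CT6 (adjusted p = 0.000112). Nr1d2 did not follow it down, at 11.16 at CT14 (-0.21, adjusted p = 0.564), and Tef rose further, to 11.59 (0.76, adjusted p = 0.00118). Per2 rose after CT6, to 11.26 at CT14 (1.67, adjusted p = 0.00105), as did Wee1 (0.96, adjusted p = 0.000108) and Hlf (0.68, adjusted p = 0.00387), the output genes whose means were the same at CT2 and CT6.

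The heat shock genes and Cirbp turned in opposite ways after CT6. Hspa1b stood at 11.53, 11.97, 10.91 and 12.67 at CT22, CT2, CT6 and CT14, and rose by 1.76 from CT6 to CT14 (adjusted p = 0.000208). Hsph1 stood at 11.72, 11.79, 10.96 and 12.21 (1.25 after CT6, adjusted p = 3.44e-05), so for both the low point of the 4 times was CT6. Cirbp stood at 9.65, 10.07, 11.21 and 9.16 and fell by 2.05 after CT6 (adjusted p = 0.00014). Lss and Fdps were also lowest at CT6 of these times: both were lower at CT2 than at CT22 (-0.71 and -0.75, adjusted p = 0.024 and 0.0211) and rose after CT6 by 1.32 and 1.12 (adjusted p = 5.47e-05 and 0.000108). Levels at CT10 and CT18 come from arrays whose control probe sets and 5' to 3' ratios differ from these, so they are a description only. There Arntl was at 5.99 and 9.78, Dbp at 12.90 and 9.63, Hsph1 at 10.71 and 11.87, and Cirbp at 10.85 and 9.19.

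**Figure D5:**
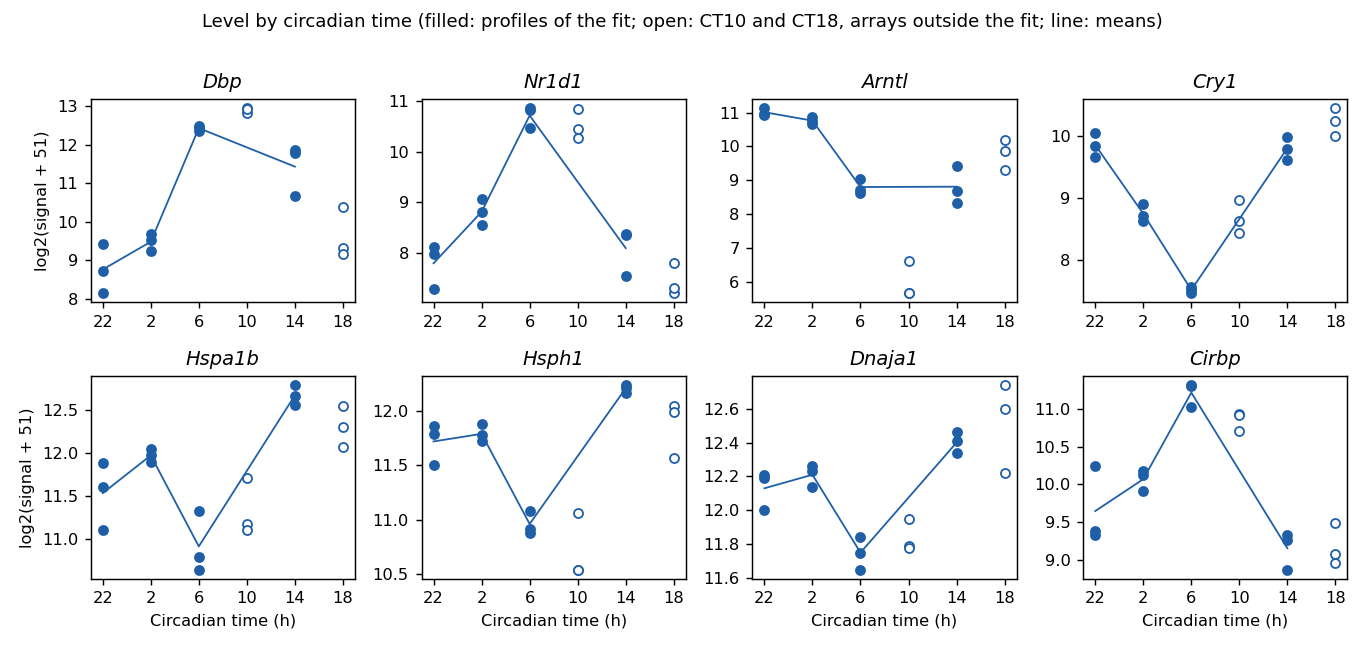
Levels (log2(signal + 51), vertical, own scale per panel) of 8 genes by circadian time (h), starting at CT22. Filled points are the 3 profiles of each time in the fit, joined at their means, and open points are CT10 and CT18 arrays outside it; Cry1, Hspa1b and Hsph1 have their lowest fitted mean at CT6 (7.52, 10.91 and 10.96), and Cirbp its highest (11.21).

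The first and second cycle were sampled 24 h apart, and each has only 1 profile a side that is not shared with the other, so a difference between cycles could not be tested. Single-array differences were taken for the first cycle (42 minus 38 h) and for the second (66 minus 62 h). Their shared sign in every called gene follows from the lack of overlap between CT2 and CT6 profiles, so it is no check between cycles. The differences were 2.83 and 2.76 for Dbp, 2.29 and 1.67 for Nr1d1, -1.71 and -1.94 for Arntl and -1.16 and -1.11 for Cry1. For the inducible chaperones they were further apart, at -1.19 and -0.57 for Hspa1b and -0.90 and -0.33 for Chordc1, and so they were for Per2, at 0.54 and 1.48. The averaged pairs gave 3.26 for Dbp, -2.24 for Arntl, -1.41 for Hspa1b and 0.73 for Per2.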

How the data were processed

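Labelled RNA of 24 whole-adrenal samples was measured on Affymetrix mouse arrays at 12 times, 38 to 82 h after lights off. The deposited values are probe set intensity on a linear scale, scaled by the authors in a way not given in the sources used here. The table has 45101 probe sets, of which 34945 carry 1 gene symbol, 932 several and 9160 none here, and 64 are controls. Circadian time was taken as hours minus 12, modulo 24.

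Near-identical arrays were averaged, which gave 18 profiles from 24 arrays. The number of arrays limits the precision. Values were taken as log2(intensity + 51), 51 being the 10th percentile. The brightest probe set stood for a gene, and genes with a mean signal of at least 183, the 40th percentile, were kept. The test was limma 3.58.1 (lmFit and eBayes with trend, R 4.3.3) over the 12 profiles of CT2, CT6, CT14 and CT22, with Benjamini-Hochberg adjustment over 13880 genes. Tables and plots used Python 3.11.15. On simulated data with 200 changed genes, 69% were recovered at a log2 difference of 0.5 and 93% at 1, with 7 false calls. The simulated noise was drawn separately for each gene and profile. Shifts shared by many genes of a profile were not simulated, so these rates may not hold for the real profiles.

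The members and gene lists were chosen with earlier results of these data known. Named genes were all tested clock and D-box list members, the 15 largest called differences each way, and up to 4 called members of every other list or, without a call, the 2 with the lowest p; genes outside this rule are said to be so or serve as markers or list examples. Alternatives covered the offset, filter, scaling, probe set choice, samples in the fit, replicate block, cycle, trend, each profile left out and, chosen after seeing the data, 82 h replicate 1 left out and brown fat markers as a covariate.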

Additional observations from a re-analysis of the deposited data

How the results depend on the processing

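Of 70 genes called (18 up, 52 down), 46 were called with no filter on low values (11 up), 106 over all tested probe sets (79 down), 34 over all 18 profiles (20 down), 72 over the 6 profiles of CT2 and CT6 alone (30 up), 741 with near-identical arrays counted separately (269 up, 472 down), 28 with the cycle as a term (8 up, 20 down), 39 without the intensity trend (10 up, 29 down) and 48 with the brown fat covariate (34 down). Leaving out 1 profile gave 11 to 105 calls, 3 to 25 up and 7 to 85 down. Heat shock genes that fell numbered 11, and 6 over 18 profiles, 17 with arrays counted separately, 7 with the cycle term, 6 without trend and 2 to 11 with 1 profile left out. D-box and output genes that fell numbered 4, and 2 with the cycle term, 1 with the covariate and 1 to 4 with 1 profile left out; those that rose numbered 2, 4 with arrays counted separately and 2 to 3 with 1 profile left out. Core clock genes that rose numbered 1 to 3, and those that fell 2 to 3, with 1 profile left out. The share of risers among calls was 25.7%, 41.2% over 18 profiles and 41.7% over 6. The cause of these shifts was not tested, except that profiles left out leave fewer samples.

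With the replicate number as a block 23 genes were called (6 up, 17 down), among them 3 heat shock and 2 D-box list genes that fell. Whether the numbers pair the samples could not be told. Same-numbered profiles had correlations of deviations of -0.333, 0.342 and 0.15. Deviations from a mean of 3 profiles cancel out within each time, so these values are tied to one another.

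No called gene changed sign. Uncalled genes near 0 did. Btrc was -0.0041 after quantile normalization, -0.014 after median centring, -0.0073 with arrays counted separately, -0.11 with the covariate and -0.0083 to 0.036 with 1 profile left out. Per3 was -0.012 after median centring, -0.033 with the block and -0.047 to 0.087 with 1 profile left out. Hlf was 0.045 with the block and -0.059 to 0.05 with 1 left out, and Wee1 0.04, 0.071 with the covariate and -0.043 to 0.06. With the covariate Alas2 was -0.045, Bhlhe40 -0.11, Mcm6 0.034, Ppara -0.018, S100b -0.013 and Hbb-b2 -0.0029. With the brightest unmarked probe set Hbb-b2 was -0.036, Mbp -0.10 and Tnni2 -0.047. With 1 profile left out Hbb-b2 ranged from -0.012 to 0.10, Timeless from -0.0082 to 0.054, Rora from -0.0096 to 0.12, Alas2 from -0.05 to 0.29, Csnk1e from -0.0057 to 0.10 and Bhlhe41 from -0.0074 to 0.10.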
